A study of Arabidopsis thaliana with 6 samples.

Results

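Wild-type Col leaves of 3-week-old Arabidopsis thaliana plants were probed with dimethyl sulfate (DMS) in the living tissue, and the marks were read as base changes in 19 amplified transcripts. The libraries described here are 3 of the 6 in the series: 1 library, labelled Col-0, treated with water as a mock and 2 Col libraries, replicates 1 and 2, treated with 1% DMS for 30 min under vacuum. The other 3 libraries are of the chr2 genotype and enter here only through the shared estimate of spread in the fits. No transgene or other allele is labelled for Col. Whether replicates 1 and 2 are separate plants is not in the labels, so SDs and p-values measure the spread between DMS libraries, which may be technical. Each genotype has 1 mock library, so the spread between mocks was not measured. Intervals and p-values against the mock take the spread of the DMS libraries in its place. All RNA was extracted from nuclei (5 µg per reaction), reverse transcribed with gene-specific primers, amplified by PCR, and fragmented to 50 to 200 bp. The sources used here give no molecular identifiers, so a rate is a share of base calls and not of independent RNA molecules. The mock held 453222421 base calls, DMS replicate 1 447512861 and DMS replicate 2 446281801.

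The amplicons are 16 primary microRNA transcripts (pri-miRNAs) and 3 mRNAs, between 230 and 327 nt long. The pri-miRNAs are pri-miR156b (AT4G30972), pri-miR159a (AT1G73687), pri-miR159b (AT1G18075), pri-miR160a (AT2G39175), pri-miR160c (AT5G46845), pri-miR164b (AT5G01747), pri-miR165a (AT1G01183), pri-miR166a (AT2G46685), pri-miR166b (AT3G61897), pri-miR167b (AT3G63375), pri-miR168a (AT4G19395), pri-miR168b (AT5G45307), pri-miR319a (AT4G23713), pri-miR319b (AT5G41663), pri-miR390a (AT2G38325) and pri-miR393b (AT3G55734). The mRNAs are UBQ4 (AT5G20620), MYC2 (AT1G32640) and MPK3 (AT3G45640). Position 1 is the 5′ end of an amplicon. Of the 5550 positions, 2656 are A or C, and 2173 of these lie outside the first and last 26 nt, where the primers anneal. All 2173 passed the minimum of 100 base calls in each Col library, the lowest being 14053 in the mock, 25393 in DMS replicate 1 and 11416 in DMS replicate 2. They are the positions described here: 1785 in pri-miRNAs and 388 in mRNAs. The 2389 G and T positions of the same stretches served as the background.

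DMS methylates the pairing face of unpaired A and C. A reverse transcriptase that reads through the mark puts a wrong base there, so the mismatch rate of an A or C is a measure of how exposed it was. A plant pri-miRNA folds into a hairpin, and the nuclear Dicing complex of DCL1, HYL1 and SE cuts the miRNA duplex out of its stem. Which bases are paired and where bulges and loops lie is known to guide those cuts. Among these families, miR156 targets SPL transcription factors, miR159 targets MYB factors, miR319 targets TCP factors, and miR160 and miR167 target auxin response factors. miR164 targets NAC factors, miR165 and miR166 target the HD-ZIP III factors, miR168 targets AGO1, miR390 starts the making of trans-acting siRNAs, and miR393 targets auxin receptors. UBQ4 encodes polyubiquitin, MYC2 a transcription factor of jasmonate signalling and MPK3 a MAP kinase of plant defence.

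A position is called reactive here when its mismatch rate was at least 1% in both DMS libraries and, in each, at least 5 times the rate of the mock. This is a rule of size with no test. The following sequences show where such positions lay in the 4 pri-miRNAs with the highest share of reactive positions, in the pri-miRNA with the lowest, and in MYC2. Capitals mark the reactive A and C, and every other base is in lower case. Each run covers the amplicon without its primer ends, and its letters are the reference bases of the deposited tables, written with T for U.
pri-miR159a: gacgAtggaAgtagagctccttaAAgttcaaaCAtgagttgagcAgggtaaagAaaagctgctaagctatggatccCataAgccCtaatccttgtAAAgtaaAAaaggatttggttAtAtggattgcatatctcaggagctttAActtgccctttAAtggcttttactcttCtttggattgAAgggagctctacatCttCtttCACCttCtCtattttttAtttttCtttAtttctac
pri-miR166a: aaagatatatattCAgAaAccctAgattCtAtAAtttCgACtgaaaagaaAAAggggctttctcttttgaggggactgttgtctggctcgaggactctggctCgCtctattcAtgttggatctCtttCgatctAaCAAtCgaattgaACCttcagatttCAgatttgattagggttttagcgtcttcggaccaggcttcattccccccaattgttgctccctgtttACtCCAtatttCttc
pri-miR168a: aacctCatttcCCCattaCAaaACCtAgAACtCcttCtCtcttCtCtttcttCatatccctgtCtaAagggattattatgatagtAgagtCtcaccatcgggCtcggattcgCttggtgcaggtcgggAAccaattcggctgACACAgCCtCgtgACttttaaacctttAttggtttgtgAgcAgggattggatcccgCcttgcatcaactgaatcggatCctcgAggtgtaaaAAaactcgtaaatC
pri-miR160a: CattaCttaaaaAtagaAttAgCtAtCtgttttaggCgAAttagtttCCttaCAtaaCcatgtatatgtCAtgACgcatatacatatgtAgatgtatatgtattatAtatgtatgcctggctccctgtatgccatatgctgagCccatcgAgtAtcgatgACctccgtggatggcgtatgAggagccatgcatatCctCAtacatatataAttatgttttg
pri-miR393b: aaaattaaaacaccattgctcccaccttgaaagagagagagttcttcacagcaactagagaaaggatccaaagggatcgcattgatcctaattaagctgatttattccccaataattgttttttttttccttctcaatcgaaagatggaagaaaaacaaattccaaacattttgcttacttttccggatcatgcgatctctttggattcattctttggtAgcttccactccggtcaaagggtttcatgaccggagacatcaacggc
MYC2: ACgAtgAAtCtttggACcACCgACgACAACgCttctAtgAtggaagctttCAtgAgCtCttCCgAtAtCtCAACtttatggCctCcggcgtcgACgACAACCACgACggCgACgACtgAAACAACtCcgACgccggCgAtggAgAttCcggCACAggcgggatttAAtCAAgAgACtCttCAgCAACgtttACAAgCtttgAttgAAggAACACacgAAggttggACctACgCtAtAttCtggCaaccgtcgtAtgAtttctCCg
In MYC2 the capitals run through the whole stretch, with 116 of 141 A and C positions reactive. In pri-miR159a, with 36 of 108, they stand singly or in short clusters, with gaps of up to 24 nt between them. In pri-miR393b a single A of 140 A and C positions is marked. A gap means only that no position in it passed the rule in both libraries.

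Mean mismatch rates were higher under DMS than in the mock, with the widest gaps at A and C and narrower ones at T and G. Over the mRNAs, the mean rate of A was 0.0466% in the mock, 2.54% in DMS replicate 1 and 2.66% in replicate 2. That of C was 0.0845%, 2.21% and 2.22% in the same order. Over the pri-miRNAs, A stood at 0.0424%, 1.42% and 2.06%, and C at 0.107%, 1.65% and 1.39%. Both DMS libraries were above the mock for A and for C in either kind of transcript, and the replicates lay closer together in the mRNAs. For G, the pri-miRNA means were 0.120%, 0.186% and 0.132%, and the mRNA means were 0.103%, 0.143% and 0.136%. For T, they were 0.0475%, 0.122% and 0.130% in pri-miRNAs, and 0.0443%, 0.174% and 0.173% in mRNAs. The means of T were thus above the mock in both DMS libraries, at rates far below those of A and C. The median T of mRNAs rose too, from 0.0341% to 0.133% and 0.0984%. In pri-miRNAs it did not, at 0.0292% in the mock and 0.0284% and 0.0276% under DMS. The median G of pri-miRNAs was likewise no higher, at 0.0702%, 0.0629% and 0.0589%. The higher pri-miRNA means of T and G are therefore not those of a typical position. In the primer ends, where the sequence is that of the primer, A and C averaged 0.0590%, 0.0925% and 0.105%.

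Counted over all 2173 A and C positions, 572 (26.3%) were reactive in both DMS libraries, against 0 of 2389 G and T positions. The mRNAs held 301 of these among 388 positions (77.6%) and the pri-miRNAs 271 among 1785 (15.2%). The median rate of the positions so chosen was 4.22% in pri-miRNAs and 2.70% in mRNAs, which is no comparison of the transcripts, since the rule keeps different shares of them. In all, 53 pri-miRNA and 7 mRNA positions passed 5% in both libraries. In the mRNAs, 171 of 206 A (83.0%) and 130 of 182 C (71.4%) were reactive, while in pri-miRNAs the shares were close, at 157 of 1039 A (15.1%) and 114 of 746 C (15.3%). Near the limit of 1%, 37 positions had a lower DMS rate of 1 to 1.2%, and 44 had one of 0.8 to 1%.

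Position by position, edgeR's quasi-likelihood test (fitted on all 6 libraries, Benjamini-Hochberg adjusted p under 0.05) placed 365 of the 2166 A and C positions tested above the mock, which is 16.9%. It placed 1 (0.0462%) below, a C at position 221 of pri-miR167b that read 0.179% in the mock and 0.0120% and 0.0185% under DMS. None of 2382 G and T positions was called above (0%), with 61 above and 99 below the mock at an unadjusted p under 0.05, where DESeq2 called 43 above. Of the 365, 268 lay in mRNAs (of 387 tested) and 97 in pri-miRNAs (of 1779). The rule of size and the test shared 328 positions. On simulated A and C counts with the spread as estimated, the test recovered 0% of the changes, up to 100-fold. A position that was not called is therefore no sign of an unchanged rate. The G and T test was not simulated. The count fell to 0 when any one of the 4 DMS libraries was left out, with the 3 Col libraries alone, and when edgeR took coverage as library size, while DESeq2 called 981.

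Averaged over its A and C positions, every amplicon had a higher rate in both DMS libraries than in the mock. The mean of MYC2 was 0.0567% in the mock and 2.32% and 2.45% under DMS. On log2(rate + 0.0001), with rates as fractions, limma put the rise at 36.0-fold (95% interval 29.8 to 43.4, limma adjusted p = 7.26e-05). The added constant makes the folds of this paragraph smaller than the ratios of the mean rates. MPK3 went from 0.0523% to 2.50% and 2.58%, and UBQ4 from 0.0897% to 2.31% and 2.29%. In these mRNAs the DMS libraries lay close together, with SDs of 0.0141 to 0.0911 percentage points (n = 2). Among pri-miRNAs the mean ran from 0.781% (pri-miR160c) to 2.49% (pri-miR156b) in replicate 1, and from 0.233% (pri-miR160c) to 2.89% (pri-miR393b) in replicate 2. By limma over the 19 amplicons, 17 (89.5%) passed, 14 of them pri-miRNAs. The rise was 19.5-fold in pri-miR159a (16.8 to 22.8, adjusted p = 7.26e-05), 24.8-fold in pri-miR168a (18.5 to 33.1, adjusted p = 0.000170) and 8.94-fold in pri-miR319b (7.68 to 10.4, adjusted p = 0.000128). pri-miR165a (adjusted p = 0.335) and pri-miR160c (adjusted p = 0.0552) did not pass in this fit on all 6 libraries. Without DMS replicate 1 of Col, pri-miR319a did not pass either. With the 3 Col libraries alone, pri-miR160c was the only amplicon that did not pass. In Col, pri-miR165a read 0.143% in the mock and 1.25% and 2.51% under DMS. Its result in the 6-library fit also rests on the chr2 DMS libraries, which share the estimate of spread.

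**Figure D1:**
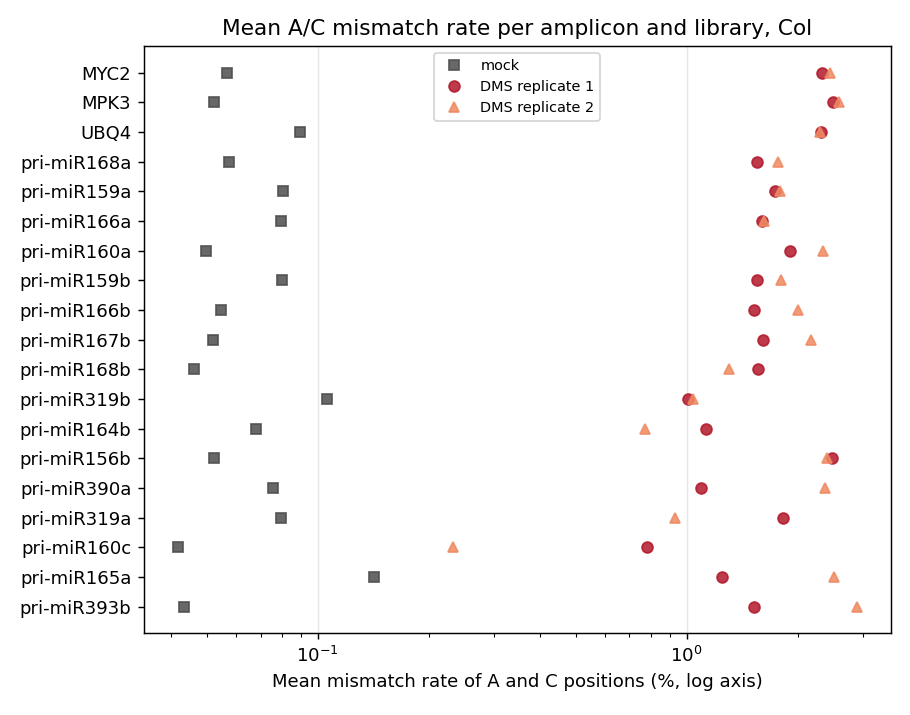
Mean mismatch rate of the A and C positions of each amplicon (x axis, percent, log axis) in the mock (squares), DMS replicate 1 (circles) and DMS replicate 2 (triangles) of Col. Both DMS libraries lie above the mock in all 19 amplicons, and they lie farthest apart in pri-miR160c, at 0.781% and 0.233%.

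The means hide how the rate was spread along a transcript. The median A or C of an mRNA read 2.15% to 2.34% in DMS replicate 1 and 2.02% to 2.36% in replicate 2. In pri-miRNAs the medians lay between 0.0325% and 1.06% in replicate 1 and between 0.0287% and 0.828% in replicate 2, where mock medians were 0.0277% to 0.0439%. The 5 highest positions of MYC2 held 8.31% and 7.70% of its summed rate. In pri-miR166a they held 17.9% and 18.2%, in pri-miR156b 66.0% and 67.8%, in pri-miR165a 93.2% and 97.6%, and in pri-miR393b 56.2% and 98.7%. A pri-miRNA could thus reach the mean of an mRNA through a handful of positions.

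**Figure D2:**
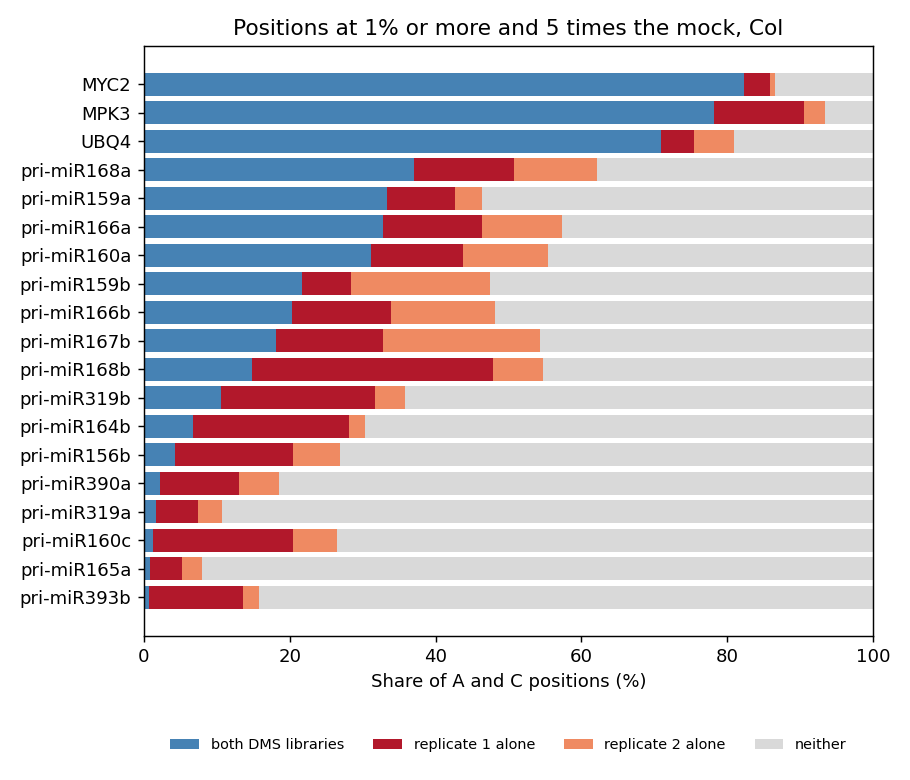
Share of the A and C positions of each amplicon (x axis, percent) that passed 1% and 5 times the mock in both DMS libraries (blue), in replicate 1 alone (dark red), in replicate 2 alone (orange) or in neither (grey). The mRNAs lead with 70.9% to 82.3% in both, the pri-miRNAs follow from 37.1% in pri-miR168a down to 0.714% in pri-miR393b.

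Ranked by the share of reactive positions, pri-miR168a led the pri-miRNAs with 46 of 124 (37.1%), followed by pri-miR159a with 36 of 108 (33.3%), pri-miR166a with 36 of 110 (32.7%) and pri-miR160a with 32 of 103 (31.1%). A middle group held pri-miR159b (26 of 120), pri-miR166b (27 of 133), pri-miR167b (21 of 116), pri-miR168b (17 of 115) and pri-miR319b (13 of 123). The last 7 had few or single reactive positions: pri-miR164b 6 of 89, pri-miR156b 4 of 93, pri-miR390a 2 of 92, pri-miR319a 2 of 122, and pri-miR160c, pri-miR165a and pri-miR393b 1 each. By this share, which needs both libraries, members of a family could differ widely. Between pri-miR160a (103 positions) and pri-miR160c (83), each library by itself differed, with 45 and 17 passing in replicate 1 and 44 and 6 in replicate 2. Between pri-miR168a (124 positions) and pri-miR168b (115), the counts were close in replicate 1, at 63 and 55, and apart in replicate 2, at 60 and 25. No test was run between amplicons.

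Replicate agreement was highest in MYC2 and UBQ4. Across the positions of an amplicon, Pearson's r between the DMS libraries was 0.954 in MYC2, 0.915 in UBQ4, 0.861 in pri-miR159a, 0.820 in pri-miR166a and 0.727 in pri-miR159b. It was 0.582 in pri-miR168a and 0.585 in pri-miR160a, and between -0.10 and 0.478 in the other 11 pri-miRNAs. Positions of an amplicon share molecules and primers, so these values describe the libraries and carry no test. In pri-miRNAs, 252 positions passed the rule in replicate 1 alone and 150 in replicate 2 alone, beside the 271 that passed in both. The shared positions were 51.8% of those of replicate 1 and 64.4% of those of replicate 2. In mRNAs the positions of a single library numbered 27 and 11, and the shared ones were 91.8% and 96.5%. Over all amplicons, replicates 1 and 2 taken singly passed 851 and 733 of 2173 A and C positions. They passed 55 and 34 of 2389 G and T positions, none of which passed in both. In pri-miRNAs 336 positions differed by more than 10-fold between the DMS libraries, in mRNAs 3. Of the reactive positions, 115 of 271 in pri-miRNAs and 255 of 301 in mRNAs agreed within 1.5-fold.

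**Figure D3:**
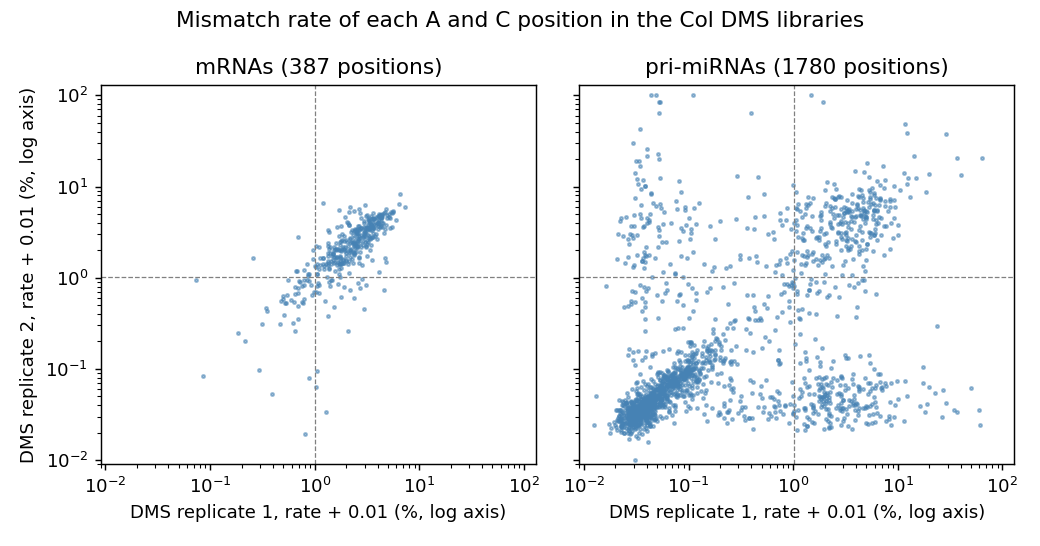
Mismatch rate of each A and C position in DMS replicate 1 (x axis) against DMS replicate 2 (y axis), both as percent plus 0.01 on log axes, for 387 mRNA positions and 1780 pri-miRNA positions with at most 5% in the mocks. Dashed lines mark 1%. The mRNA points form 1 diagonal cloud, while the pri-miRNA points form a low cloud, a high cloud and arms that are high in 1 replicate only.

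Among the pri-miRNAs, pri-miR159a had the highest replicate correlation. The A at position 208, predicted to lie in a bulge or internal loop, read 0.0403% in the mock, 12.6% in DMS replicate 1 and 12.5% in replicate 2. The A at position 107, in the last pair of a predicted helix, read 0.0243%, 9.15% and 10.0%, and the A at position 50 read 0.0106%, 7.49% and 11.6%. All 3 passed edgeR's test (adjusted p = 0.0349, 0.0334 and 0.0334). Its mean rate over A and C was 1.76% ± 0.0419 (SD, n = 2) under DMS against 0.0808% in the mock. The longest stretch of pri-miR159a without a reactive position between reactive ones was the 24 nt from 146 to 169. Position 149 in it read 0.983% and 0.867% under DMS, just under the limit of 1%.

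In pri-miR166a the C at position 150, in a predicted hairpin loop, read 0.0809% in the mock and 7.54% and 6.98% under DMS (edgeR adjusted p = 0.0357). The C at position 175, also in a hairpin loop, read 0.0487%, 6.06% and 6.27%. It missed the threshold (edgeR adjusted p = 0.295), although its Col DMS rates lay close together. The spread in that test is also drawn from the chr2 DMS libraries. The 36 reactive positions lay in the 5′ part, around the loops and in the 3′ tail. Between positions 188 and 252, a stretch of 65 nt, none was reactive. Rates above 1% in 1 library did occur there. Position 197 read 4.78% and 0.934% in DMS replicates 1 and 2, and position 247 read 2.15% and 0.0573%. In that stretch the C at position 207 was high in both DMS libraries, at 5.87% and 5.49%, but its mock rate of 1.59% kept it under 5 times the mock.

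pri-miR168a showed its highest shared rates at an A at position 261 (0.0174%, 8.42% and 6.91% in the mock and in DMS replicates 1 and 2, edgeR adjusted p = 0.0334) and at an A at position 112 (0.0418%, 6.35% and 11.4%, adjusted p = 0.0348). Its longest gap between reactive positions was 21 nt. In pri-miR160a a C at position 188 read 0.0264%, 10.6% and 9.20% (adjusted p = 0.0348). A C at position 74 of pri-miR160a, predicted to be paired inside a helix, read 0.257%, 12.3% and 38.7%, with an adjusted p of 0.143. The 36 nt from 134 to 169 of pri-miR160a held no reactive position.

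Among the others, pri-miR166b had an A at position 106 in a predicted hairpin loop that read 0.0222% in the mock and 9.27% and 7.06% under DMS (edgeR adjusted p = 0.0334). pri-miR168b had a C at position 115 at 0.0628%, 8.47% and 5.94% (adjusted p = 0.0370). In pri-miR319b the C at position 239 read 0.0981%, 6.33% and 5.37% (adjusted p = 0.0538), and its 88 nt from 57 to 144 held no reactive position. In pri-miR164b, whose 6 reactive positions are all A, the gap was wider still, the 139 nt from 68 to 206. In pri-miR167b the C at position 224 read 0.0711% in the mock and 14.4% and 21.4% under DMS, and in pri-miR159b the A at position 214 read 0.0423%, 19.8% and 13.6%. Neither passed the test (edgeR adjusted p = 0.0796 and 0.364), whose spread is also drawn from the chr2 DMS libraries.

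**Figure D4:**
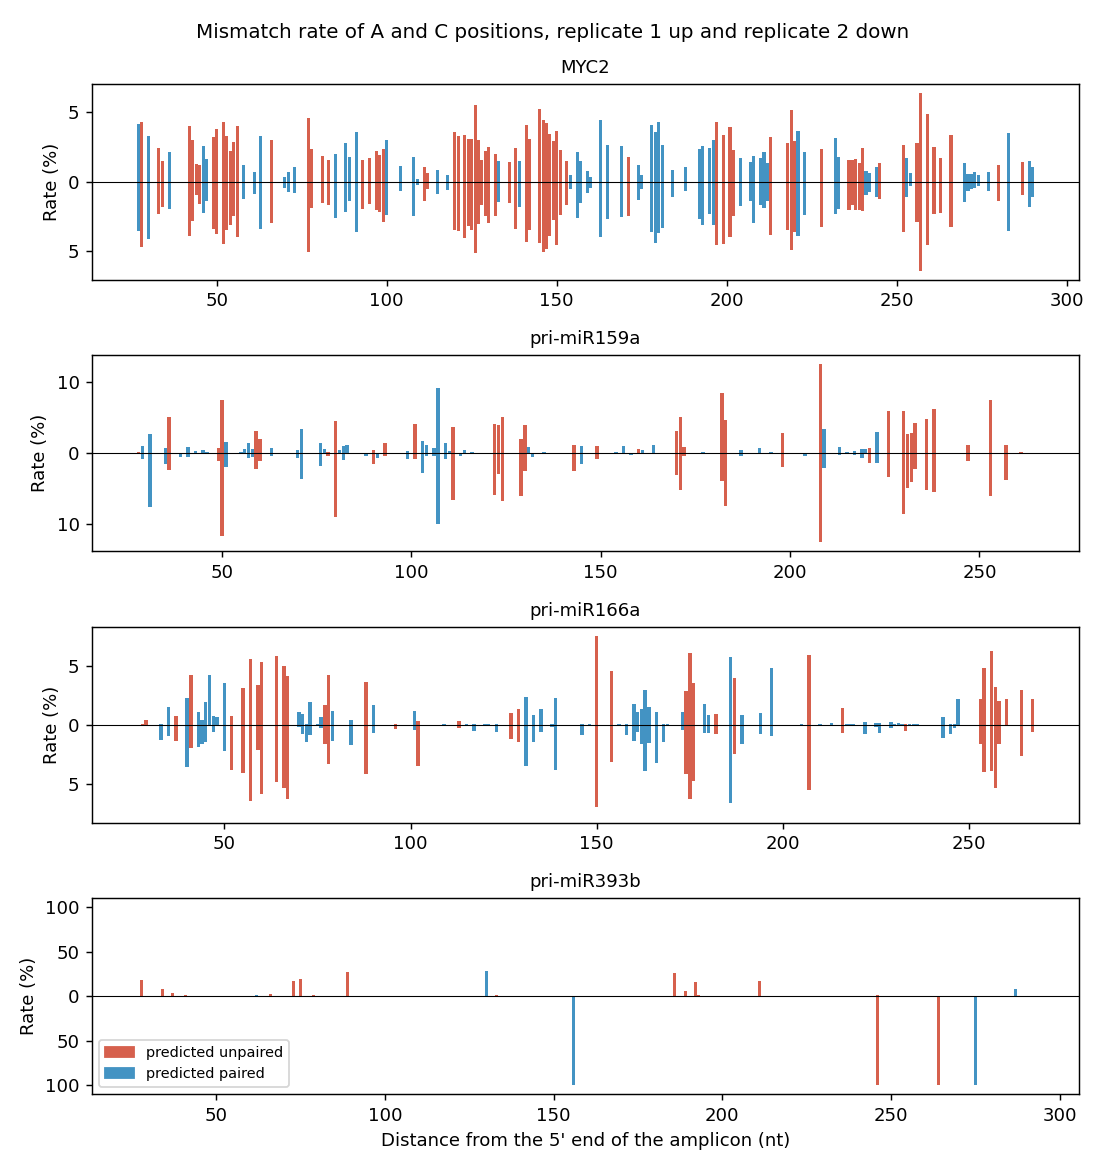
Mismatch rate (y axis, percent) of each A and C position along MYC2, pri-miR159a, pri-miR166a and pri-miR393b (x axis, distance from the 5′ end of the amplicon in nt), with DMS replicate 1 drawn upward and DMS replicate 2 downward, and colours for predicted unpaired (red) and paired (blue) positions. The profiles mirror each other in MYC2, pri-miR159a and pri-miR166a, while in pri-miR393b the tall bars of replicate 2, near 100%, stand opposite rates of 1.48% or less in replicate 1.

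The predicted minimum free energy fold of each amplicon was set beside the rates. The fold was computed from sequence alone and saw no DMS value. In pri-miRNAs, 176 of 661 predicted unpaired positions were reactive (26.6%) and 95 of 1124 predicted paired ones (8.45%). The mean rate of unpaired positions was 0.0789% in the mock, 2.65% in DMS replicate 1 and 3.09% in replicate 2, and that of paired positions was 0.0639%, 0.852% and 1.01%. Under DMS the unpaired mean was 2.87% ± 0.309 and the paired mean 0.931% ± 0.112 (SD, n = 2). In mRNAs the gap was narrower, at 2.79% ± 0.0713 and 2.03% ± 0.0290 (SD, n = 2), with 176 of 199 unpaired (88.4%) and 125 of 189 paired positions (66.1%) reactive.

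The pri-miRNA positions were also averaged by element. Hairpin loops read 2.99% and 3.88% in DMS replicates 1 and 2, and bulges or internal loops 2.74% and 3.29%. Multiloops read 2.45% and 2.70%, and exterior stretches 1.90% and 1.26%. The last pairs of helices read 1.00% and 1.16%, and the inside of helices 0.750% and 0.909%. Both paired classes were below every unpaired class in each library. Single positions high in 1 library weighed on these means. Among hairpin loops, pri-miR393b position 264 read 99.9% in replicate 2, and pri-miR319a positions 139 and 151 read 60.2% and 61.5% in replicate 1. Among paired positions, pri-miR393b 275 and 156 read 99.9% and 99.7% in replicate 2. Means without such positions were not computed, so the order among the unpaired classes is uncertain. Reactive positions made up 34 of 123 in hairpin loops (27.6%), 51 of 454 in last pairs (11.2%) and 44 of 670 inside helices (6.57%).

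**Figure D5:**
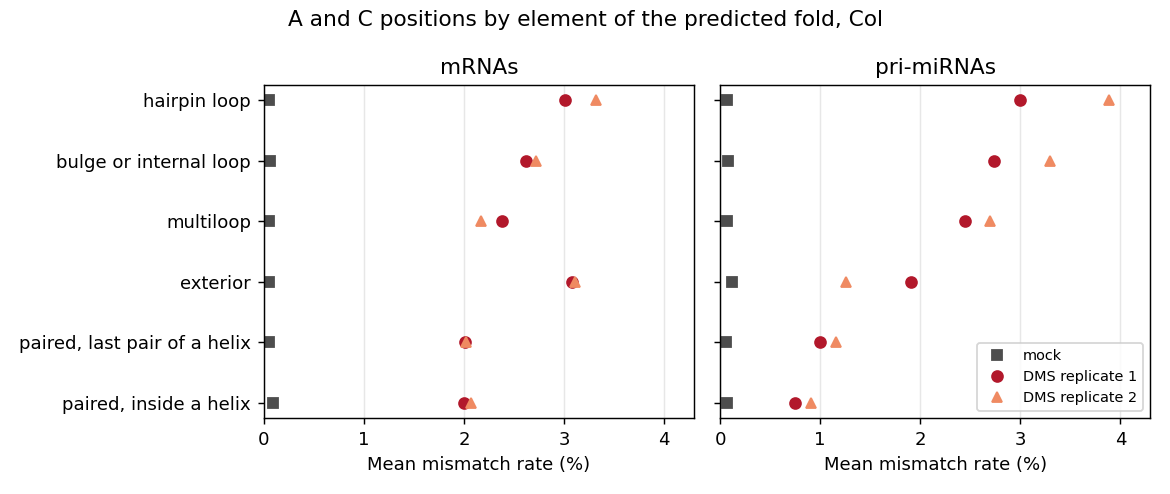
Mean mismatch rate (x axis, percent) of A and C positions by element of the predicted fold, for mRNAs (left) and pri-miRNAs (right), in the mock (squares), DMS replicate 1 (circles) and DMS replicate 2 (triangles) of Col. In pri-miRNAs the paired classes stay at or below 1.16% and the unpaired ones at or above 1.26%, while in mRNAs the paired classes lie near 2%.

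Within single amplicons, the unpaired mean exceeded the paired mean in 15 of 16 pri-miRNAs in each DMS library and in 8 of 16 in the mock. The exceptions were pri-miR165a in replicate 1 (0.0876 times the paired mean) and pri-miR168b in replicate 2 (0.927 times). In the mRNAs it was higher in all 3 in both DMS libraries and in none in the mock. As a measure of how well the rate tells predicted unpaired from paired positions, the area under the ROC curve was 0.489 in the mock, 0.651 in DMS replicate 1 and 0.605 in replicate 2 for pri-miRNAs, where 0.5 means no separation. For mRNAs it was 0.441, 0.665 and 0.666. By this rank measure, which single extreme rates move little, 16 of 16 pri-miRNAs were above 0.5 in replicate 1 and 12 of 16 in replicate 2, with 8 of 16 in the mock. Those at or under 0.5 in replicate 2 were pri-miR390a (0.489), pri-miR168b (0.467), pri-miR319a (0.433) and pri-miR160c (0.409). Tested per amplicon by limma, the unpaired-over-paired ratio rose from mock to DMS in 3 of 19 (15.8%): pri-miR159a (3.45-fold, 95% interval 2.18 to 5.47), pri-miR166b and UBQ4, each with an adjusted p of 0.0415. None of the 3 passed with the 3 Col libraries alone or without any one of the 4 DMS libraries, and UBQ4 turned direction when its position with 19.3% in the mock was kept.

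Rates were also fed back into the fold, once per DMS library. In pri-miR159a the folds guided by replicates 1 and 2 had the same 90 base pairs, and in MYC2 the same 80. In pri-miR168b the guided folds shared 37 pairs, 37.8% of those of replicate 1 and 34.9% of those of replicate 2. In pri-miR167b they shared 39 pairs, 44.3% and 42.9%. In MPK3 they shared 37 pairs, 54.4% and 57.8%. Over the pri-miRNAs the median share was 79.3% and 80.1%. Both guided folds start from the same sequence, so shared pairs do not measure how well the libraries agree. The guided folds kept a median of 78.1% and 77.5% of the unguided pairs of the pri-miRNAs. In the mRNAs they kept 25.9% to 70.9% in replicate 1 and 32.6% to 70.9% in replicate 2. In pri-miR165a, where Pearson's r was -0.016, the guided folds still shared 82.7% and 77.9%.

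Members of a family share stretches of sequence, and 11 of the pri-miRNAs, of 5 families, hold runs of at least 16 letters found in a relative. These runs were found by matching the amplicons to each other and were not matched to mature miRNAs. A run from each of 4 families is shown here to compare its copies, with reactive A and C in capitals.
pri-miR159a: actcttCtttggattgAAgggagctct
pri-miR159b: actcttctttggattgAagggagctct
pri-miR160a: tatgcctggctccctgtatgcca
pri-miR160c: tatgcctggctccctgtatgcca
pri-miR166a: tcggaccaggcttcat
pri-miR166b: tcggaccaggcttcat
pri-miR168a: CtcggattcgCttggtgcaggtcgggAAc
pri-miR168b: ctcggattcgcttggtgcaggtcgggaac
In the runs shown, the copies of the miR160 and miR166 families carried no reactive base and those of miR159 at least 1 each. Another run of the miR159 family, from 153 to 169 in pri-miR159a and from 159 to 175 in pri-miR159b, had 0 of 8 reactive in both copies. The run of pri-miR168a held 4 reactive bases and the identical run of pri-miR168b none. The libraries were split in the run of pri-miR168b, with a mean of 1.29% in DMS replicate 1 and 0.0686% in replicate 2. In that of pri-miR168a the means were 1.55% and 1.86%.

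Over the 11 pri-miRNAs, 16 of 250 A and C positions inside shared runs were reactive (6.40%) and 221 of 1005 outside them (22.0%). The mean rate inside was 0.0704% in the mock, 1.01% in DMS replicate 1 and 0.776% in replicate 2. Outside it was 0.0760%, 1.62% and 1.81%. More of the inside positions were predicted to be paired, so the classes were also set apart. Among paired positions, 5 of 195 inside (2.56%) and 78 of 604 outside (12.9%) were reactive, and among unpaired ones 11 of 55 (20.0%) and 143 of 401 (35.7%). The mean rate of paired positions was 0.390% and 0.316% inside the runs and 1.08% and 1.02% outside, in DMS replicates 1 and 2. That of unpaired positions was not lower inside in both libraries: it was 3.17% and 2.40% inside and 2.43% and 2.99% outside. In the 27-nt run of pri-miR166a the mean rate was 0.208% ± 0.0447 (SD, n = 2) against 0.0764% in the mock, and in that of pri-miR166b it was 0.0936% ± 0.00300 against 0.0814%. In the 27-nt run of pri-miR159a it was 1.95% ± 0.243 against 0.101%. The reactive share did not drop alike in all 11. It was 0% inside and 45.0% outside in pri-miR166a, and 13.9% and 43.1% in pri-miR159a. In pri-miR168a it was 36.4% and 37.2%, and in pri-miR319b 9.09% and 11.1%. Only pri-miR319a had a higher share inside, at 3.03% and 1.12%. In pri-miR160c and pri-miR165a the share outside was itself low, at 1.39% and 0.943%. No test was run on these differences.

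The pri-miRNAs with few reactive positions had rates of a different kind. In pri-miR393b the A at position 264 read 0.0545% in the mock, 0.0386% in DMS replicate 1 and 99.9% in replicate 2. The A at position 275 read 0.116%, 0.0994% and 99.9%, and the C at position 156 read 0.0391%, 0.0337% and 99.7%. Its only reactive position, the A at 246, read 0.0216%, 1.48% and 99.9%. In replicate 1, by contrast, pri-miR393b peaked at the A at position 130 with 28.6% and at the A at position 89 with 26.9%, where replicate 2 stayed at 0.0326% and 0.0482% and the mock at 0.0193% and 0.0318%. No position of this transcript passed 5% in both DMS libraries.

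pri-miR165a, pri-miR319a and pri-miR390a showed the same kind of split. In pri-miR165a the A at position 93 read 0.0514% in the mock, 0.0432% in DMS replicate 1 and 85.0% in replicate 2, and the A at position 184 read 0.0960%, 1.91% and 84.2%. In pri-miR319a the C at position 151 read 0.0310%, 61.5% and 0.0141%, the C at position 139 read 0.0131%, 60.2% and 0.0254%, and the A at position 164 read 0.0355%, 64.4% and 20.3% (edgeR adjusted p = 0.0510). In pri-miR390a the A at position 189 read 0.0393%, 0.0423% and 63.9%, and the A at position 58 read 0.0314%, 11.7% and 47.9%. Over all amplicons, 12 positions were above 50% in a DMS library and under 5% in the other, all of them in these 4 pri-miRNAs. In pri-miR156b, whose mean was the highest of the pri-miRNAs in replicate 1, a C at position 202 was high in both libraries (0.107%, 29.0% and 38.0%, adjusted p = 0.0642).

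pri-miR165a also differed in the mock itself. Its positions 32, 102, 143, 209 and 252 read 5.53% to 6.52% in the Col mock and at most 0.120% in either Col DMS library. These 5 positions were left out of the means and tests above.

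The kind of wrong base was a readout that the rule did not use. At the reactive A of mRNAs, T made up 64.9% and 68.1% of the mismatches in DMS replicates 1 and 2, against 31.0% in the mock. At their reactive C, T made up 48.6% and 50.2% against 75.3% in the mock, and A made up 32.8% and 33.7% against 19.9%. In pri-miRNAs reactive A were read as T in 63.2% and 75.0% of mismatches, against 40.3% in the mock. All these shares are of summed rates, so positions with high rates weigh most. In replicate 2 the A at position 246 of pri-miR393b, with a rate of 99.9%, was read almost only as T. Single positions differed from these mixes. More than 95% of the mismatches were calls of 1 base at 19 and 43 of the 301 reactive mRNA positions, but at 127 (46.9%) and 141 (52.0%) of the 271 reactive pri-miRNA positions. At the pri-miRNA positions that passed in replicate 1 alone this held for 189 of 252 (75.0%), and in replicate 2 alone for 109 of 150 (72.7%). The number of molecules that entered the PCR was not given in the sources used here, and its part in these rates was not tested.

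The mRNAs gave the most even profiles. In MYC2 the C at position 257, in a predicted hairpin loop, read 0.0485% in the mock and 6.41% and 6.42% under DMS (edgeR adjusted p = 0.0334), and no gap between reactive positions was longer than 10 nt. In UBQ4 the A at position 149 read 0.0337%, 7.27% and 5.98%, and the A at position 105 read 0.0282%, 5.33% and 5.27% (adjusted p = 0.0334 for both). In MPK3 the A at position 148 read 0.0423%, 6.48% and 8.21% (adjusted p = 0.0334). By edgeR, 121 of 141 positions of MYC2 rose, 87 of 109 of UBQ4 and 60 of 137 of MPK3.

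MPK3 agreed less between its DMS libraries than the other mRNAs, with r = 0.528 and 17 positions that passed in replicate 1 alone against 4 in replicate 2 alone. Its amplicon starts ahead of the start codon. Before it, 58 of 71 positions were reactive (81.7%), and in the open frame 49 of 66 (74.2%). The mean rates were 2.44% and 2.32% before the start codon and 2.56% and 2.87% after it, in replicates 1 and 2. By mean rate the order of the regions was therefore the same in both libraries, with a difference that was small in replicate 1. By the share of reactive positions the order was the opposite.

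With most positions of the mRNAs reactive, the base next to an A or C could be examined. A C after an A was reactive at 52 of 61 positions (85.2%) with a mean of 2.85% ± 0.0646 (SD, n = 2). A C after a C was reactive at 16 of 29 (55.2%), with 1.34% ± 0.000350, and a C after a G at 14 of 26 (53.8%), with 1.72% ± 0.0827. For A the shares lay between 77.5% after a G and 88.7% after an A. These SDs cover the spread between libraries, not that between positions, and pairing was not held equal, so the values describe these positions and no difference was tested.

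UBQ4 carried a signal of its own in the mock. At 8 positions, 7 of them G or T, the Col mock read 6.73% to 21.6%, and the rate fell to between 2.83% and 11.5% in the DMS libraries. Polyubiquitin genes hold near-identical repeats and copies, so base calls from another copy cannot be told apart from those of UBQ4, and its values are uncertain to that extent. The only A among the 8, position 28, was left out of the means and tests.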

How the data were processed

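Each file holds, per the file headers, the counts of A, C, G and T calls at every position of the 19 amplicons in 1 library, as deposited. Reads were handled with cutadapt, Picard, BWA and SAMtools 1.5, per the submitters' processing notes. The genome build and read filters were not stated there, and no coordinates are printed. Repeated header lines were dropped, coverage was the sum of the calls, and the mismatch rate was the share of calls that were not the reference base. Positions above 5% in either mock were left out of means and tests. Names and loci came from the RefSeq table of TAIR10.1, where 19 of 19 names matched.

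Mismatch counts of positions with at least 10 mismatches were tested with edgeR 4.0.16 (quasi-likelihood, log coverage as offset, 6 libraries in 4 groups) and amplicon values with limma 3.58.1 on log2(rate + 0.0001), both Benjamini-Hochberg adjusted at 0.05. DESeq2 1.42.0, under R 4.3.3, was an alternative. Folds and DMS-guided folds came from ViennaRNA 2.7.2, and Python 3.11.15 with SciPy 1.17.1 did the rest. The A and C test was tried on simulated counts. With low spread, 94% of 3-fold and 100% of 10-fold changes were recovered, with 2 of 1966 unchanged positions called. With the spread as estimated, 0% were recovered at every fold simulated, up to 100-fold. Named positions are up to 3 per amplicon with the highest lower DMS rate, and up to 2 with rates above 50% and under 5%; others named (positions of 1 library alone, those high in the mock, the one below it) were chosen after their values were seen. The amplicons, rule and tests were chosen with earlier results of these data known. Regions of the mature miRNAs were planned and not analysed here, since no table of mature sequences was given; predicted elements and shared runs, chosen after seeing the data, took their place. Same-numbered DMS libraries of Col and chr2 did not deviate together (correlation 0.0191 over 2167 positions), so no block was used. Intervals cover neither PCR duplication nor the spread between mock libraries.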

Additional observations from a re-analysis of the deposited data

Results flagged for a closer look

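At G and T positions, which DMS is not expected to mark at this step, 9 positions in 5 pri-miRNAs passed 5% in a single Col DMS library while the mock stayed under 1%. In pri-miR156b the T at position 150 read 23.6% in replicate 2, and the T at positions 203 and 37 read 15.7% and 8.02% in replicate 1. In pri-miR319a the T at position 30 read 19.5% in replicate 2. In pri-miR390a the G at position 151 read 11.3% in replicate 1. In pri-miR168b the G at position 202 read 7.71% in replicate 2. In pri-miR319b the T at positions 77 and 157 and the G at position 192 read 6.68%, 5.85% and 5.60% in replicate 2. In each case the other Col DMS library stayed at or below 0.161%. None of the 9 positions passed the rule of size, which needs both libraries.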

How the results depend on the processing

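The count of A and C positions above the mock by edgeR was 365. It was 0 with the 3 Col libraries alone, with the replicate number as a block (replicate block), with a TMM factor per library, with library sizes from coverage (an alternative added after seeing the data) and without any one of the 4 DMS replicates (0 to 0). DESeq2 called 981, and the other settings gave 344 to 512, the highest with edgeR's newer fit, also added after seeing the data. DESeq2 called 43 G and T positions. The count of amplicons with a raised unpaired-over-paired ratio, 3 of 19, was 0 with the 3 Col libraries alone, under the replicate block and without each DMS replicate (0 to 0), 2 with no mock limit, 7 with a mock limit of 1%, 5 with the primer ends kept, and 6 with a pseudocount of 0.001 or with unpaired positions from the partition function. The count of raised means stayed at 16 to 18 of 19. The rule of size gave 376 positions at a rate of 2%, and 561 to 673 under the other settings with both replicates. Replicate 2 by itself gave 733, beside 34 G and T positions, and replicate 1 by itself 851, beside 55. The area under the curve over all amplicons, 0.652, fell to 0.584 with the primer ends kept. The log2 change of the ratio turned direction for UBQ4 (-1.66 with no mock limit) and pri-miR165a (0.71 with a mock limit of 1%, 0.82 with none, 1.98 by the partition function, and -5.41, past the threshold, to 4.53 with 1 DMS replicate left out). Among the positions named by the rule, the only ones recomputed, it turned for 8 in 4 pri-miRNAs, none of them called. With 1 replicate left out, their log2 changes ranged from -0.60 to 0.27 (pri-miR160c position 41), -0.25 to 10.69 (pri-miR165a position 93), -5.97 to 5.01 (pri-miR165a position 175), -1.12 to 10.94 (pri-miR319a position 151), -0.50 to 10.83 (pri-miR393b position 264), -0.12 to 0.72 (pri-miR393b position 271) and -0.22 to 9.75 (pri-miR393b position 275). The block gave 1.57 at pri-miR160c position 41, -1.78 at pri-miR165a position 175 and -0.10 at pri-miR393b position 271, and TMM gave -1.88 and -1.76 at pri-miR393b positions 235 and 271. The causes of these changes were not tested. At the median coverage, 3 base calls are 0.00367% to 0.00427% in the 3 Col libraries.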
